A study of Mus musculus with 32 samples.

Results

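The genes described here are the mouse genes of MHC class I presentation, taken by name: the heavy chains H2-D1, H2-K1, H2-T23 and H2-Q4, the light chain B2m, the peptide transporter and loading genes Tap1, Tap2 and Tapbp, and the immunoproteasome subunits Psmb8 and Psmb9. The rule uses names only, but the genes were chosen with earlier results of these data known. They are 10 of the 45706 genes in the count table, each was found by its Ensembl identifier, and all 10 were among the 20015 genes that passed the filter on low counts. RNA sequencing had been done on whole spinal cord of CHMP2Bintron5 mice, which carry 12 copies of the transgene, and of non-transgenic controls, all from crosses of the FVB/N, C57BL/6 and DBA/2 strains. CHMP2Bintron5 is a truncated form of the ESCRT-III protein CHMP2B, known from an inherited frontotemporal dementia. The 32 libraries fell into 6 groups: 6 control and 5 CHMP2Bintron5 libraries at 1.5 months of age, then 5 and 4 at 6 months, then 6 of each at 10-12 months. The series' design text instead counts 4 CHMP2Bintron5 samples at the youngest age and calls the oldest age 12 months, and the sample labels were followed. The sources used here do not give the promoter that drives the transgene, the cells that express it or the sex of the mice. Nothing in the labels says that each library came from a separate animal, so the p-values measure the spread between these samples. The question put to the data was whether class I presentation transcripts differed between the genotypes at each age and between the ages.

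Class I molecules consist of a heavy chain and beta-2 microglobulin and carry peptides to the cell surface, where CD8 T cells and natural killer cells read them. The peptides are cut by the proteasome, whose immunoproteasome form carries the interferon-inducible subunits Psmb8 and Psmb9, moved into the endoplasmic reticulum by the TAP transporter, and fitted into the heavy chain with the help of tapasin, the product of Tapbp. Interferons induce most of these genes, and in the nervous system microglia and endothelial cells express them more than neurons do. In whole tissue, fewer cells of a type and less RNA per cell cannot be told apart.

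Promoters were looked at because class I heavy chain genes are known to share a proximal control region, made of enhancer A, bound by NF-kappaB, an interferon-stimulated response element next to it, and the X and Y boxes bound by RFX and NF-Y factors. RefSeq promoters (build GRCm38.p6, 250 bases before to 50 after each start) were at hand for 9 of the 10 genes, all but Tap2, and H2-K1 had a pair of windows. Of these 5 are given, written 5′ to 3′ along the gene's own strand, to show how the heavy chains, B2m and Tap1 differ in these letters. Capitals mark matches on either strand to the kappaB site of enhancer A (GGGG, then ATT, then CCCC), to the core of the interferon-stimulated response element (GAAA, any 2 bases, GAAA) or to GAANNGAAA, a form with a shorter first repeat and its own spacing. The windows are chr17:35262844-35263143 on the plus strand for H2-D1, chr17:34000298-34000597 on the minus strand for H2-K1, chr17:35379367-35379666 on the plus strand for H2-Q4, chr2:122147437-122147736 on the plus strand for B2m and chr17:34187306-34187605 on the plus strand for Tap1.
H2-D1: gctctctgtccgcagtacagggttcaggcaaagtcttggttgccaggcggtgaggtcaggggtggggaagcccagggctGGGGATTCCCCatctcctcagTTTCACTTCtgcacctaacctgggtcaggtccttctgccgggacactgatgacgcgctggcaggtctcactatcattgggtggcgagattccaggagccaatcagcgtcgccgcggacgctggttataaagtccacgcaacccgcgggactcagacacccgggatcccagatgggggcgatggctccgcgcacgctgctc
H2-K1: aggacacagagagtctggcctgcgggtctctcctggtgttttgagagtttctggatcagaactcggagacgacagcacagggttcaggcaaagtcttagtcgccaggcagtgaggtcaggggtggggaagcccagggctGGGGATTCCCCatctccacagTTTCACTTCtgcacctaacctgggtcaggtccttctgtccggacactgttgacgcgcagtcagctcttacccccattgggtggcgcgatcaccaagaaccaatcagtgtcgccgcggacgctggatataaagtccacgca
H2-Q4: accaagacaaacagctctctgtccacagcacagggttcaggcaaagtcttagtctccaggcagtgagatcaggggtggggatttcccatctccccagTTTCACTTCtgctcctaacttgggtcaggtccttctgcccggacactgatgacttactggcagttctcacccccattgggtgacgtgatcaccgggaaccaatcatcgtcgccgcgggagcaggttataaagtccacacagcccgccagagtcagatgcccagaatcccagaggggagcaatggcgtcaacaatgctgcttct
B2m: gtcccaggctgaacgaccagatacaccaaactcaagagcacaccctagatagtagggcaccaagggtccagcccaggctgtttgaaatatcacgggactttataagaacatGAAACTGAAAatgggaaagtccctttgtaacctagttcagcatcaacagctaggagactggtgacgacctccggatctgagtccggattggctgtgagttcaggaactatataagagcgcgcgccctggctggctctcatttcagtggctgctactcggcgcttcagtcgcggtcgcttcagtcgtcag
Tap1: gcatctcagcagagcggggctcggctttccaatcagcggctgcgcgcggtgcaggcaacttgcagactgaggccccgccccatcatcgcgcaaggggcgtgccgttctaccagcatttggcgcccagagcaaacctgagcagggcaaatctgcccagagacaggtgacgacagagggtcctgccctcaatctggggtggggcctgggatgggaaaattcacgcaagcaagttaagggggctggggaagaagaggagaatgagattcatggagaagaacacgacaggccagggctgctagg

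H2-D1 and H2-K1 both held the kappaB site, at -171 and -111 relative to the annotated start, and in both the reverse-strand match TTTCACTTC to GAANNGAAA began 21 bases further on. The letters of the kappaB site were rare: 10 of 32851 promoters of the same length held them (0.0304%). Of these 10, 3 were windows of the members themselves, that of H2-D1 and the overlapping pair of H2-K1. Another was that of H2-Q6, also a class I heavy chain gene. H2-Q4 held the TTTCACTTC match at -153 without the exact kappaB letters. B2m held GAAACTGAAA at -139, a match to the response element core, and H2-T23 held one on the reverse strand, TTTCTCTTTC, at -124. The core was present in 3.44% of all promoters and GAANNGAAA in 7.52%. Tap1, Tapbp, Psmb8 and Psmb9 had no match to these 3 motifs in their windows. Of the short motifs, CCAAT, the core of the Y box, was found on 1 or the other strand in 8 of the 9 genes and in 37.4% of all promoters, and TGACG, the core of a CREB and ATF site, in 6 of the 9 genes and in 20.8% of all promoters. Tap1 and Psmb9 are transcribed away from each other from starts 226 bases apart, so that their windows share 275 bases read on opposite strands. A match is a description of letters in a window, and no binding was measured.

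Depth ran from 28368376 to 85348326 counts on genes per library. Mouse Chmp2b, which need not report the transgene and so checks the labels only in part, had log2 fold changes between genotypes of 0.36 ± 0.13 (SE), 0.28 ± 0.15 and 0.25 ± 0.13 from the youngest to the oldest age, with adjusted p of 0.142, 0.22 and 0.161. Some libraries stood apart. CHMP2Bintron5 replicates 2 and 3 at 6 months held 59.9 and 145.6 CPM (counts scaled to a common library size) of Avil, a sensory ganglion marker that reached 1.41 CPM at most elsewhere. Acta1, the skeletal muscle actin, was above 30 CPM in 6 libraries and at most 14.6 CPM in the rest. Xist was at 4.81 CPM in CHMP2Bintron5 replicate 4 at 6 months and at 759.9 CPM or more in all other libraries. Of the 6 Acta1 libraries, 3 were of the 6-month groups: control replicates 4 and 5 and CHMP2Bintron5 replicate 1. Results that rest on the Avil or the Acta1 libraries are given with and without them. The library low in Xist was left out only in the fits that left out each library in turn.

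Scaled for length, B2m and H2-D1 were the most abundant of the 10 transcripts, at 200.1 and 129.6 CPM per kilobase of exon over all libraries. H2-K1 followed at 24.99, Tapbp at 13.9 and H2-Q4 at 6.61 CPM per kilobase. Tap2 at 3.96, Psmb8 at 3.09, H2-T23 at 1.91, Tap1 at 1.67 and Psmb9 at 1.50 CPM per kilobase made up the low end. B2m lies on chromosome 2, at 122147686 to 122153083 on the plus strand of GRCm38, and the other 9 genes lie in the H2 complex on chromosome 17. All 10 are annotated as protein-coding. The members differed in how much they spread within a group, from an average coefficient of variation of 11.9% for Tapbp to 32.1% for Tap2.

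**Figure D1:**
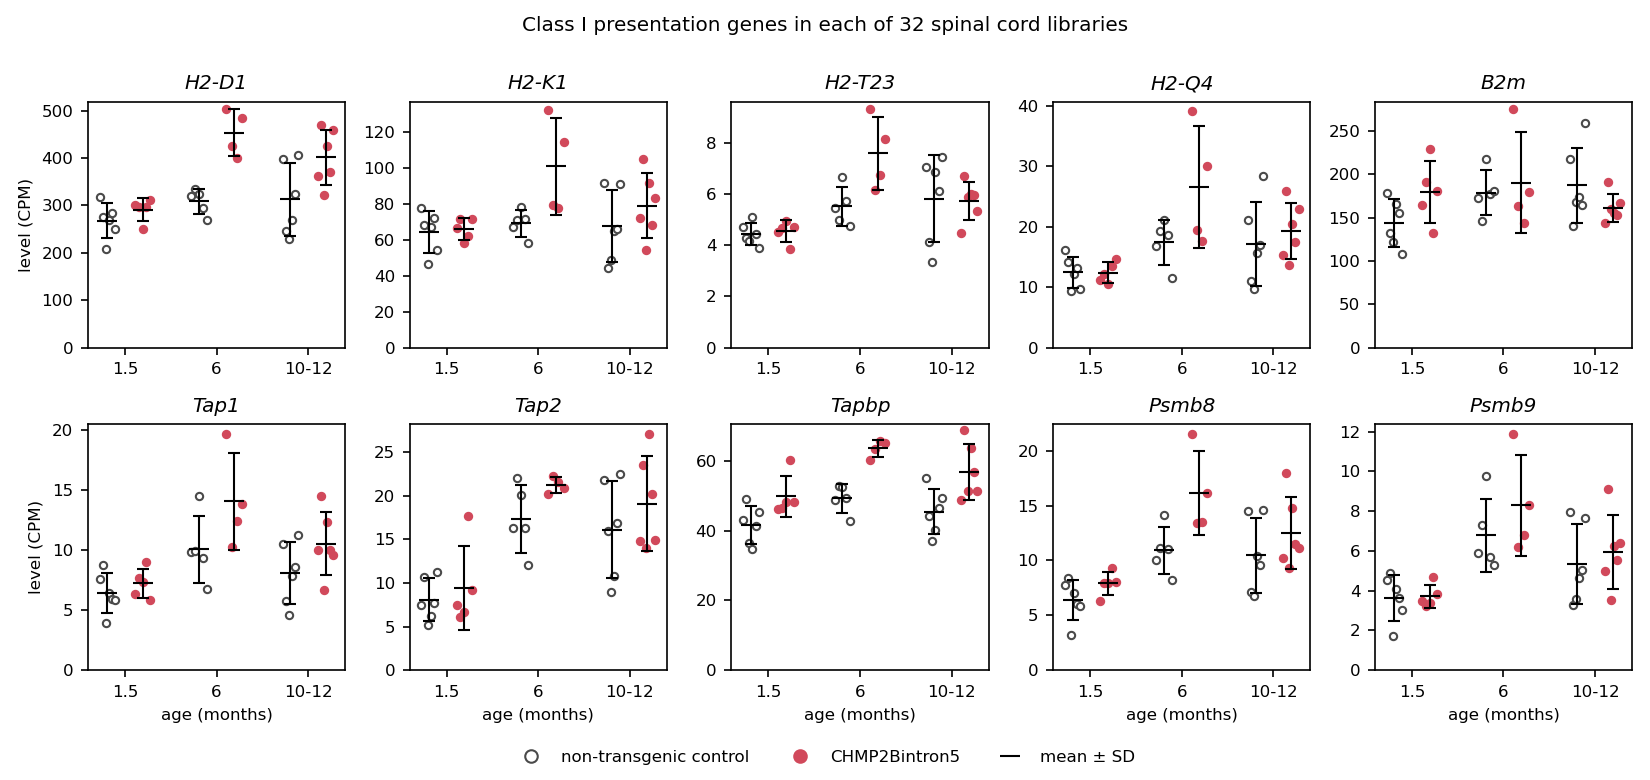
Level of each of the 10 class I presentation genes in every library, in CPM on a linear axis that starts at 0, in the 6 groups by age and genotype. Points are libraries, and bars give the group mean with its SD. The CHMP2Bintron5 group at 6 months has the highest mean for all 10 genes, and it lies wholly above its controls for H2-D1 and Tapbp.

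The CHMP2Bintron5 group at 6 months had the highest mean of the 6 groups for all 10 genes. The control group at 1.5 months had the lowest for 9, the exception being H2-Q4, lowest in the CHMP2Bintron5 group of that age. Most neighbours in this order lay close: of the 50 gaps between successive group means, 4 exceeded the larger of the 2 groups' SD. A single library, CHMP2Bintron5 replicate 1 at 6 months, held the highest level of all 32 libraries for 8 of the 10 genes, and control replicate 3 at 1.5 months held the lowest for 6.

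At 6 months 2 of the 10 genes, H2-D1 and Tapbp, were higher in CHMP2Bintron5 cord, and the same 2 genes were higher at 10-12 months. At 1.5 months none passed the test. The criterion for a call was edgeR's quasi-likelihood test with an adjusted p below 0.05 over all 20015 genes. By that rule 3.73% of all genes were called at 1.5 months (1.76% higher and 1.97% lower), 11.4% at 6 months (5.68% higher and 5.68% lower) and 18.6% at 10-12 months (8.24% higher and 10.4% lower). The count of 2 of 10 higher thus stood against 5.68% and 8.24% of all genes. This is a description, since the 10 genes were chosen with earlier results of these data known. The median log2 fold change of the 10 genes was 0.14, 0.47 and 0.23 from the youngest to the oldest age, beside 0.00, 0.02 and 0.02 over all genes tested. Fitted values lay above 0 for 9, 10 and 8 of the 10 genes. At 6 months the median was 0.67, with 10 values above 0, without the 2 libraries rich in Avil, and 0.26, with 8 above 0, without the 6 Acta1 libraries. At 1.5 months 1 of the 10 had an unadjusted p under 0.05 and DESeq2 called 0. Groups that did not overlap were seen for 2 of the 10 genes at 6 months, H2-D1 and Tapbp, and for none at the other ages, whereas 3.44%, 13.1% and 7.04% of all genes had groups that did not overlap at the 3 ages in turn.

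H2-D1 (ENSMUSG00000073411) encodes a classical heavy chain, which presents peptides to CD8 T cells, and spans 35262730 to 35267499 on the plus strand of chromosome 17. At 6 months the 5 control libraries held 320.3, 334, 324, 294 and 269 CPM. The 4 CHMP2Bintron5 libraries held 504, 426, 399 and 485 CPM. Every CHMP2Bintron5 library was above every control library, and the mean rose 1.47-fold, from 308 ± 26.3 (SD, n = 5) to 453 ± 49.2 CPM (SD, n = 4), with a log2 fold change of 0.56 ± 0.14 and an adjusted p of 0.0105. The call held when any 1 of the 32 libraries was left out, with a highest adjusted p of 0.0446. Without the 2 libraries rich in Avil, with only CHMP2Bintron5 replicates 1 and 4 left, the log2 fold change was 0.68 ± 0.17 (adjusted p = 0.0215). Without the 6 Acta1 libraries it was 0.42 ± 0.17 (adjusted p = 0.187), from 3 libraries a group. At 10-12 months the control libraries ran from 230.0 through a median of 297 to 406 CPM. The CHMP2Bintron5 libraries of that age ran from 322 through 397 to 469 CPM. The groups overlapped, with 3 of 6 CHMP2Bintron5 libraries above all controls, and the log2 fold change was 0.36 ± 0.12 (adjusted p = 0.0373). Leaving out control replicate 2, 3 or 4 or CHMP2Bintron5 replicate 2, 4 or 6 of this age ended that call, up to an adjusted p of 0.120. At 1.5 months the control libraries ran from 207 through 273 to 318 CPM and the CHMP2Bintron5 libraries held 301, 297, 250.4, 297 and 311 CPM. All CHMP2Bintron5 values lay within the range of the controls (log2 fold change 0.12 ± 0.13, adjusted p = 0.648).

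H2-K1 (ENSMUSG00000061232) encodes the other classical heavy chain of this set, at 33996017 to 34000347 on the minus strand. At 6 months its controls held 67.0, 71.0, 78.2, 71.9 and 58.1 CPM. The CHMP2Bintron5 libraries held 133, 79.5, 77.5 and 114 CPM. The high values belonged to replicates 1 and 4, while replicates 2 and 3, the libraries rich in Avil, were near the highest control. The log2 fold change of 0.55 ± 0.20 was as large as that of H2-D1 but did not pass the test (adjusted p = 0.0664). Without replicates 2 and 3 it was 0.84 ± 0.22 (adjusted p = 0.0303), a fit that left only replicates 1 and 4 in the CHMP2Bintron5 group. Of these, replicate 1 was an Acta1 library and replicate 4 the library low in Xist. Without replicate 1 the log2 fold change was 0.39 (adjusted p = 0.219), and without replicate 4 it was 0.48 (adjusted p = 0.212). H2-K1 was not called without the Acta1 libraries. At 1.5 and 10-12 months the log2 fold changes were 0.03 ± 0.18 and 0.22 ± 0.17 (adjusted p = 0.939 and 0.363).

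H2-Q4 and H2-T23 are non-classical heavy chains; the H2-T23 product, Qa-1, is known as a ligand of receptors on natural killer cells. H2-Q4 (ENSMUSG00000035929, 35379617 to 35385290, plus strand) held 16.8, 19.3, 21.2, 18.6 and 11.5 CPM in the 6-month controls. It held 39.3, 19.4, 17.6 and 30.1 CPM in the CHMP2Bintron5 libraries of that age. As with H2-K1, replicates 1 and 4 were above all controls and replicates 2 and 3 within their range. The log2 fold change of 0.61 ± 0.25 had an adjusted p of 0.118. Without replicates 2 and 3, with only CHMP2Bintron5 replicates 1 and 4 left, it was 0.99 ± 0.28 (adjusted p = 0.0422). It was 0.36 without replicate 1 (adjusted p = 0.389) and 0.54 without replicate 4 (adjusted p = 0.294). Without the Acta1 libraries it was 0.23 ± 0.29 (adjusted p = 0.748). H2-T23 (ENSMUSG00000067212, 36029773 to 36032855, minus strand) held 5.44, 5.00, 6.67, 5.73 and 4.75 CPM in these controls and 9.32, 6.15, 6.74 and 8.17 CPM in CHMP2Bintron5 cord, where 3 of 4 libraries were above all controls. Its log2 fold change was 0.46 ± 0.17 (adjusted p = 0.0773), and 0.30 ± 0.22 without the Acta1 libraries (adjusted p = 0.523). At 1.5 and 10-12 months the values were -0.01 ± 0.23 and 0.17 ± 0.22 for H2-Q4 and 0.03 ± 0.16 and -0.02 ± 0.15 for H2-T23, with adjusted p between 0.604 and 0.986. The heavy chain genes are close copies of one another, and the sources used here do not say how reads that match several of them were counted, so values of single heavy chains are uncertain in that respect. H2-T23 and H2-Q4 also overlap antisense gene models, and the strand setting of the counting is not given.

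B2m (ENSMUSG00000060802) supplies the light chain that every class I molecule needs at the surface, and none of its genotype differences passed the test. Its 6-month controls held 173, 147, 218, 177 and 180.3 CPM. The CHMP2Bintron5 libraries held 276, 163, 144 and 179.6 CPM. Replicate 1 alone was above the controls, and the lowest of the 9 libraries was also a CHMP2Bintron5 library. The log2 fold change was 0.09 ± 0.18 (adjusted p = 0.777) and was -0.14 without replicate 1 or without the Acta1 libraries. At 1.5 months the value was 0.32 ± 0.16 (adjusted p = 0.307), where 3 of 5 CHMP2Bintron5 libraries were above all controls. At 10-12 months it was -0.21 ± 0.15 (adjusted p = 0.329), and 2 of 6 controls were above all CHMP2Bintron5 libraries.

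Tapbp (ENSMUSG00000024308, 33915899 to 33929292, plus strand) encodes tapasin, which bridges the TAP transporter and the empty heavy chain. Its 6-month controls held 48.9, 52.9, 52.7, 49.6 and 42.8 CPM. The CHMP2Bintron5 libraries held 60.3, 63.5, 65.8 and 65.4 CPM. The groups did not overlap, and unlike H2-K1 and H2-Q4 no single CHMP2Bintron5 library stood out. The mean rose 1.29-fold, from 49.4 ± 4.11 (SD, n = 5) to 63.8 ± 2.49 CPM (SD, n = 4), with a log2 fold change of 0.37 ± 0.11 (adjusted p = 0.0310). That call was lost without control replicate 4 or 5 or CHMP2Bintron5 replicate 2, 3 or 4 of that age, up to an adjusted p of 0.0941, and the log2 fold change was 0.35 ± 0.14 (adjusted p = 0.144) without both Avil libraries and 0.33 ± 0.14 (adjusted p = 0.193) without the Acta1 libraries. At 10-12 months controls ran from 37.1 through 45.4 to 55.1 CPM. CHMP2Bintron5 libraries ran from 48.8 through 54.3 to 69.0 CPM. The groups overlapped, with 3 of 6 CHMP2Bintron5 libraries above all controls, and the log2 fold change was 0.32 ± 0.10 (1.25-fold, adjusted p = 0.0205), a call lost without control replicate 3 or 4 or CHMP2Bintron5 replicate 2 or 4. At 1.5 months controls ran from 34.9 through 42.2 to 49.1 CPM and CHMP2Bintron5 libraries held 46.3, 46.5, 48.3, 60.3 and 48.2 CPM, with a log2 fold change of 0.26 ± 0.10 (adjusted p = 0.170). Tapbp shares 3422 bases on the same strand with Zbtb22, and the sources used here do not say how reads in such overlaps were assigned.

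Tap1 and Tap2 encode the paired subunits of the TAP transporter, and neither passed the test between genotypes at any age. Tap1 (ENSMUSG00000037321, 34187553 to 34197225, plus strand) held 9.87, 9.93, 14.5, 9.37 and 6.76 CPM in the 6-month controls and 19.7, 10.3, 12.4 and 13.8 CPM in CHMP2Bintron5 cord. Replicate 1 was the only library above all controls, and the log2 fold change was 0.48 ± 0.24 (adjusted p = 0.202). It was 0.28 without replicate 1 (adjusted p = 0.513) and 0.09 ± 0.27 without the Acta1 libraries (adjusted p = 0.911). Tap2 (ENSMUSG00000024339, 34203527 to 34216321, plus strand) held 16.3, 22.1, 20.0, 16.4 and 12.0 CPM in these controls and 20.2, 22.3, 21.6 and 20.8 CPM in CHMP2Bintron5 cord. The CHMP2Bintron5 libraries lay close together, and 3 of the 4 were within the control range (0.29 ± 0.28, adjusted p = 0.531). Without the Acta1 libraries Tap2 was at 0.15 ± 0.34 (adjusted p = 0.887). At 10-12 months the log2 fold changes were 0.38 ± 0.21 for Tap1 and 0.24 ± 0.24 for Tap2 (adjusted p = 0.207 and 0.5), and at 1.5 months they were 0.16 ± 0.22 and 0.21 ± 0.26 (adjusted p = 0.737 and 0.697).

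Psmb8 and Psmb9 encode catalytic subunits that replace Psmb5 and Psmb6 in the immunoproteasome, and both lie beside Tap1: the stretch from Psmb9 (ENSMUSG00000096727, 34181987 to 34187764, minus strand) through Tap1 and Psmb8 (ENSMUSG00000024338, 34197721 to 34201454, plus strand) to the end of Tap2 is 34.3 kb long. Psmb8 held 10.0, 11.1, 14.1, 11.1 and 8.23 CPM in the 6-month controls and 21.5, 13.4, 13.5 and 16.1 CPM in CHMP2Bintron5 cord. Here 2 of 4 CHMP2Bintron5 libraries were above all controls, and the log2 fold change was 0.57 ± 0.23 (adjusted p = 0.114), and 0.29 ± 0.28 without the Acta1 libraries (adjusted p = 0.651). Psmb9 held 5.90, 7.31, 9.79, 5.67 and 5.31 CPM in these controls and 11.9, 6.18, 6.81 and 8.33 CPM in CHMP2Bintron5 cord. Replicate 1 alone exceeded the controls (0.29 ± 0.28, adjusted p = 0.521), and the value was 0.07 without replicate 1 and -0.11 without the Acta1 libraries. At 1.5 months the log2 fold changes were 0.30 ± 0.21 and 0.02 ± 0.25, and at 10-12 months 0.25 ± 0.20 and 0.15 ± 0.24, with adjusted p from 0.395 to 0.982. Tap1 and Psmb9 overlap by 212 bases on opposite strands, and Psmb8 overlaps an antisense gene model.

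**Figure D2:**
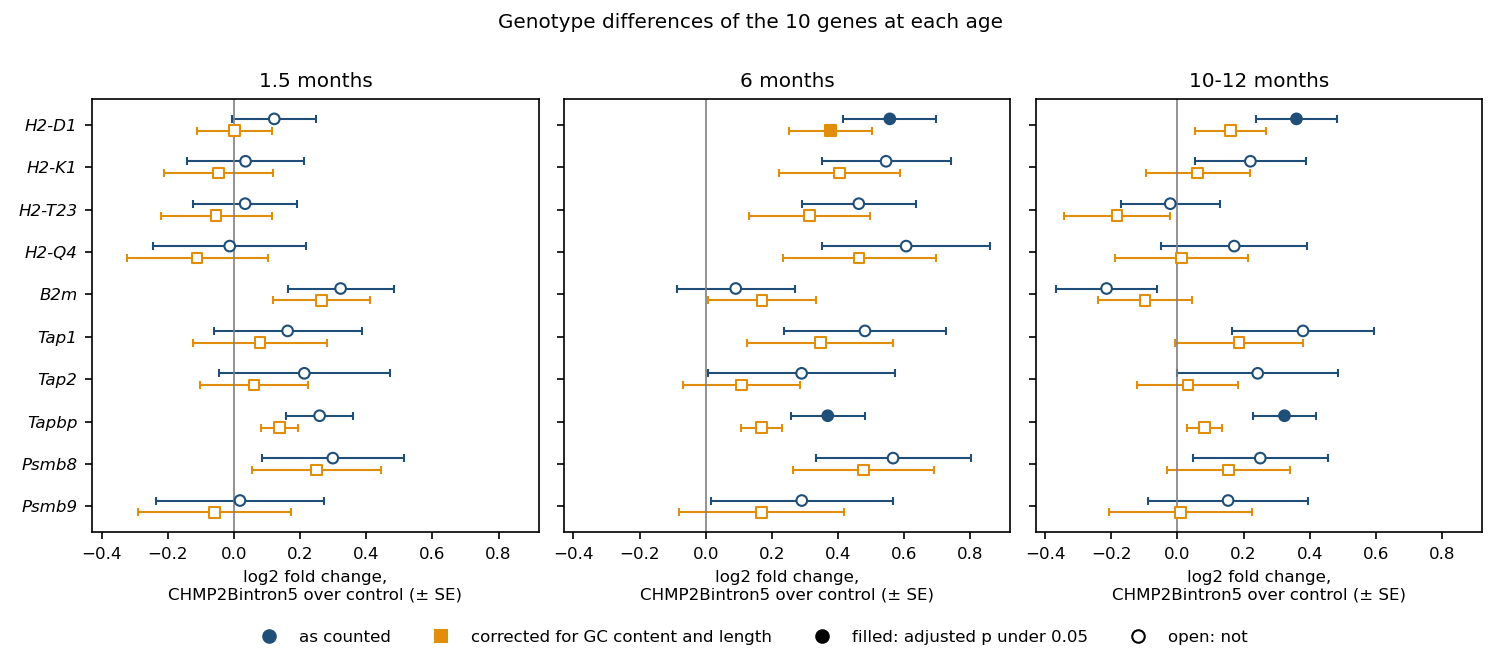
Log2 fold change between genotypes (CHMP2Bintron5 over control) with its SE for each of the 10 genes at the 3 ages, as counted (circles) and after a correction for GC content and length (squares); filled symbols have an adjusted p under 0.05. As counted, H2-D1 and Tapbp are filled at 6 and 10-12 months, and after the correction only H2-D1 at 6 months is filled.

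Library composition moved with these values. In each library a slope was fitted of every gene's log2 CPM, relative to its mean over libraries, on the gene's GC content, so that a positive slope means that GC-rich transcripts were counted more. Its median was -0.21, -0.03 and -0.01 (log2 CPM per 10 percentage points of GC) in the controls and -0.09, 0.22 and 0.11 in CHMP2Bintron5 cord, from the youngest to the oldest age. At 6 months the CHMP2Bintron5 libraries had slopes of 0.14 to 0.36 and the controls of -0.21 to 0.25. The exons of B2m are 41.2% GC and those of the other 9 genes 52.5% (Psmb8) to 57.1% (Tapbp). Across the 32 libraries the correlation between this slope and a gene's log2 CPM was 0.91 for Tapbp, 0.84 for Tap2, 0.72 for H2-D1, 0.70 for Tap1, 0.68 for Psmb8, 0.63 for Psmb9, 0.60 for H2-Q4, 0.53 for H2-K1 and 0.41 for H2-T23. For B2m it was -0.03. The points share their libraries and groups, and no p is given for these descriptions.

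**Figure D3:**
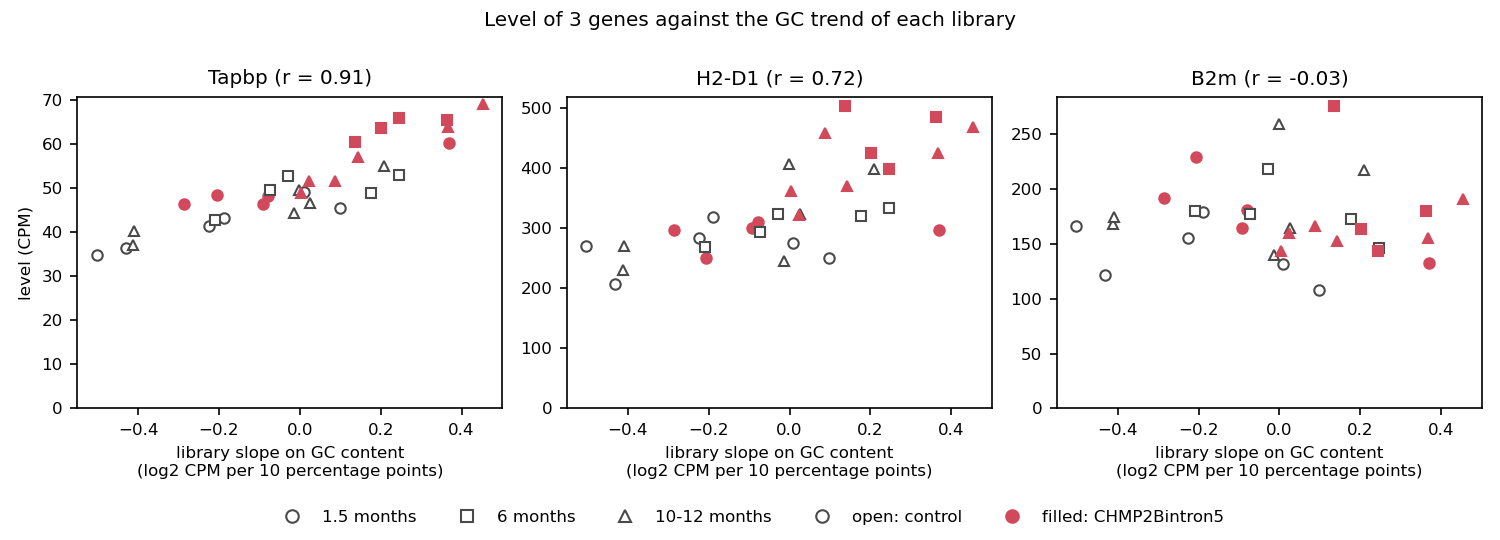
Level of Tapbp, H2-D1 and B2m, in CPM on a linear axis that starts at 0, in each of the 32 libraries. It is drawn against the library's slope of gene level on GC content (log2 CPM per 10 percentage points of GC). Points are libraries, with colour for genotype and shape for age. Tapbp rises with the slope (r = 0.91), H2-D1 less closely (r = 0.72) and B2m does not (r = -0.03). Each r was computed on log2 CPM.

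With GC content and gene length corrected for in each library, H2-D1 at 6 months remained called, at a log2 fold change of 0.38 ± 0.13 (adjusted p = 0.0353). Tapbp at 6 months was 0.17 ± 0.06 (adjusted p = 0.0594). At 10-12 months H2-D1 was 0.16 ± 0.11 (adjusted p = 0.317) and Tapbp 0.08 ± 0.05 (adjusted p = 0.301), so that neither was called. The median over the 10 genes became 0.03, 0.33 and 0.05 at the 3 ages, while the share of all genes called rose to 16.9% at 6 months and 19.4% at 10-12 months. H2-K1 at 6 months was 0.40 ± 0.18 (adjusted p = 0.129). Without the Avil libraries, the corrected fit called H2-D1, H2-K1 and H2-Q4 at 6 months, where replicates 1 and 4 were the only CHMP2Bintron5 libraries left. Whether the slope reflects library preparation or the RNA of the tissue was not tested.

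Whether the genotype difference itself changed with age was asked with an interaction term. None of the 10 genes passed, among shares of all genes of 0.155% (6 minus 1.5 months), 0.00999% (10-12 minus 1.5 months) and 0.005% (10-12 minus 6 months). In each of these comparisons 1 of the 10 had an unadjusted p under 0.05 and DESeq2 called 0. These were H2-D1 between 6 and 1.5 months (a difference of 0.44 ± 0.19 on the log2 scale), B2m between 10-12 and 1.5 months (-0.54 ± 0.22) and H2-T23 between 10-12 and 6 months (-0.48 ± 0.23). The 3 genotype comparisons are therefore not shown to differ from each other for any member.

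From 1.5 to 6 months, 7 of the 10 genes rose in CHMP2Bintron5 cord and 3 in control cord, against 2.59% and 4.92% of all genes called higher. By the interaction terms above, the rise is not shown to differ between the genotypes for any of them. Each comparison contrasts different animals or samples, and since the labels do not say when the libraries of each age were made, age and preparation cannot be told apart. In controls the risers were Tap2 (2.14-fold, log2 fold change 1.10 ± 0.26, adjusted p = 0.00763), Psmb9 (1.85-fold, 0.89 ± 0.25, adjusted p = 0.0242) and Psmb8 (1.70-fold, 0.76 ± 0.21, adjusted p = 0.0222). Tap2 ran from 5.15 through 7.60 to 11.3 CPM in the 6 controls at 1.5 months. In the 5 controls at 6 months it was at 12.0 to 22.1 CPM, so the groups did not overlap. Leaving out control replicate 3 at 1.5 months or control replicate 2 or 3 at 6 months ended the calls of Psmb8 and Psmb9.

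In CHMP2Bintron5 cord the 7 genes that rose from 1.5 to 6 months were Tap2 (2.25-fold), Psmb9 (2.23-fold), H2-Q4 (2.15-fold), Psmb8 (2.04-fold), Tap1 (1.95-fold), H2-T23 (1.67-fold) and H2-D1 (1.56-fold), with adjusted p between 0.00714 (H2-D1) and 0.0205 (Tap1). The median over the 10 genes was a log2 fold change of 0.85, against 0.01 over all genes. H2-K1 at 0.61, Tapbp at 0.35 and B2m at 0.08 did not pass (adjusted p = 0.0608, 0.0594 and 0.787). H2-Q4 held 11.1, 12.2, 10.6, 13.4 and 14.7 CPM at 1.5 months, all below the lowest 6-month value of 17.6 CPM. Tap2 held 7.44, 6.06, 6.69, 17.7 and 9.17 CPM at 1.5 months, also all below the 6-month range of 20.2 to 22.3 CPM, with replicate 4 well above the other 4 libraries. When only these groups entered the fit, 3 of the 10 were called, with the GC and length correction 5, without the Avil libraries 5, and without the Acta1 libraries 0.

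Between 6 and 10-12 months no difference passed the test. None of the 10 genes was called between these ages in either genotype, where 0% of all genes in controls and 0.345% in CHMP2Bintron5 cord were called. The number of members with an unadjusted p under 0.05 was 0 in controls and 1 in CHMP2Bintron5 cord (H2-T23, -0.41), and DESeq2 called 0 in both. Against 1.5 months, the 10-12 month controls had higher Tap2 (1.98-fold, adjusted p = 0.0174) and Psmb8 (1.63-fold, adjusted p = 0.0447), where 1.67% of all genes were called higher. The Psmb8 call held in 13 of the 32 fits that left out 1 library. CHMP2Bintron5 cord had higher Tap2 (log2 fold change 1.02 ± 0.26, adjusted p = 0.0177) and H2-D1 (0.46 ± 0.13, adjusted p = 0.0273), where 3.12% of all genes were called higher. Neither passed without the Acta1 libraries (adjusted p = 0.0781 and 0.0884). H2-D1 did not pass with the GC and length correction (0.26 ± 0.11, adjusted p = 0.143) or without the filter on low counts (adjusted p = 0.0504), and Tap2 did not pass when only these groups entered the fit (adjusted p = 0.0607). Comparisons with the same 1.5-month libraries share them and are not independent.

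The swap of catalytic subunits was read as ratios of levels per kilobase, each inducible subunit over the constitutive one it replaces: Psmb8 over Psmb5, Psmb9 over Psmb6 and, outside the 10 genes, Psmb10 over Psmb7. The inducible transcripts of Psmb8 and Psmb9 were a small fraction of their counterparts in every library. Psmb8 over Psmb5 at 6 months was 0.0281, 0.0284, 0.0475, 0.0404 and 0.0288 in controls and 0.0670, 0.0375, 0.0382 and 0.0473 in CHMP2Bintron5 cord. Replicate 1 alone was above all controls, and the log2 difference of 0.45 had an exact two-sided permutation p of 0.111 (0.5 adjusted over the 9 ratio comparisons). Psmb9 over Psmb6 averaged 0.0312 in CHMP2Bintron5 cord and 0.0291 in controls at this age, a log2 difference of 0.08 (exact permutation p = 0.690, adjusted 0.827). Psmb10 over Psmb7 at 6 months was 0.418, 0.501, 0.425, 0.334 and 0.275 in controls. It was 0.498, 0.501, 0.507 and 0.541 in CHMP2Bintron5 cord. Of these, 3 of 4 were above every control, 1 of them narrowly (0.50096 against 0.50068). The log2 difference of 0.42 had an exact permutation p of 0.0238, which was 0.214 after adjustment. At 1.5 and 10-12 months the log2 differences lay between -0.06 and 0.48 with adjusted p of 0.513 or more. Over the 9 comparisons the adjusted p ran from 0.214 to 0.827, and none passed. The smallest unadjusted exact p the groups allow is 0.00794 at 6 months and 0.00216 at the other ages. After adjustment over the 9 comparisons, a single ratio at that 6-month minimum would not have passed. The lack of a call at 6 months therefore does not show that the ratios were alike. The ratios were not corrected for the GC slope described above. Psmb10 over Psmb7 was 0.149 in the library with the lowest slope, control replicate 4 at 1.5 months (-0.50). It was 0.592 in the library with the highest slope, CHMP2Bintron5 replicate 2 at 10-12 months (0.45). The part of the slope in the ratios was not tested.

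**Figure D4:**
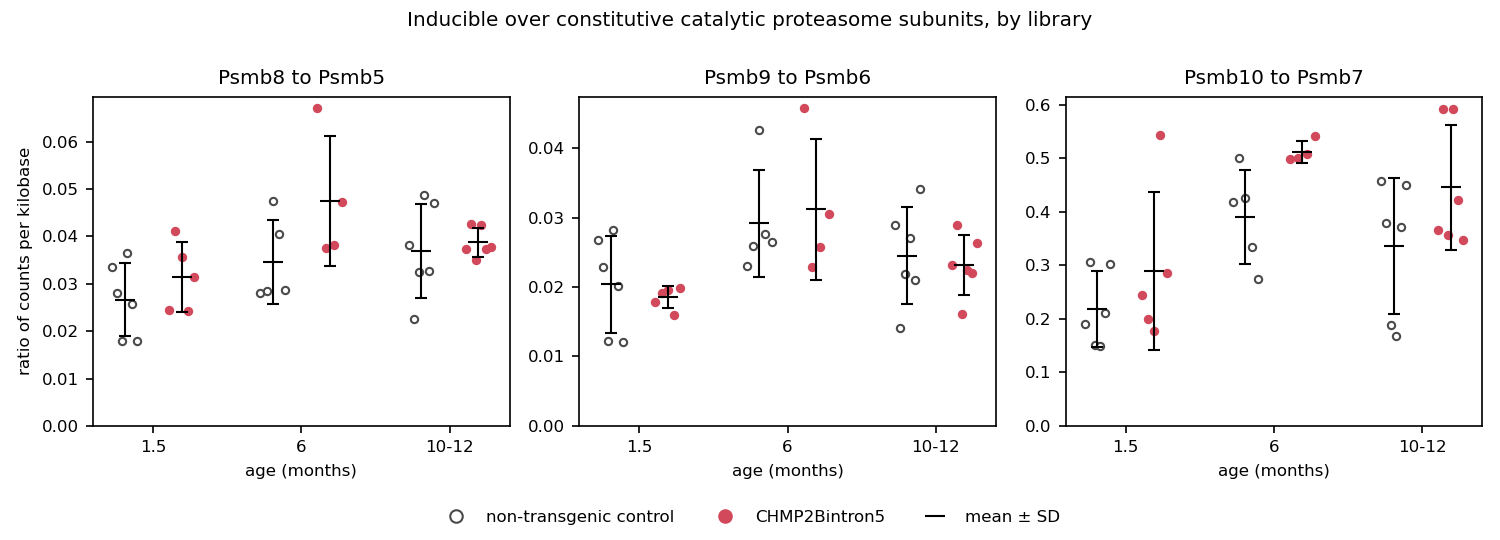
Ratio of each inducible proteasome subunit to the constitutive subunit it replaces, per kilobase of exon, in every library by age and genotype. Points are libraries and bars the group mean with its SD. At 6 months 3 of 4 CHMP2Bintron5 libraries exceed all controls for Psmb10 over Psmb7, 1 of them narrowly (0.50096 against 0.50068). The groups overlap in all 9 comparisons.

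The genes moved together from library to library, B2m less closely than the others. Over the 32 libraries, the 36 pairs without B2m had correlations of log2 CPM of 0.52 to 0.94, with a median of 0.82, and of 0.22 to 0.94 (median 0.70) once each group's mean had been taken out. Tap1, Psmb8 and Psmb9, neighbours on the chromosome, were the closest at 0.93 to 0.94, and the 4 heavy chains had 0.76 to 0.91 among themselves. The 9 pairs with B2m had 0.17 to 0.63 (median 0.55), and -0.11 to 0.69 (median 0.56) with the group means taken out. On the latter measure B2m was near 0 only with Tap2 (-0.11) and Tapbp (0.0015). With H2-T23 it had 0.69, where Tap2 had 0.22. All of these values share the libraries, their depth and the GC slope described above. Outside the 10 genes, the genes at 1 CPM or more whose levels followed the mean of the members most closely were H2-Q6 (r = 0.888 over 32 libraries), Irf1 (0.886), H2-Q7 (0.883), Gm10499 (0.866), H2-T-ps (0.844) and Parp10 (0.838). H2-Q6 and H2-Q7 are class I heavy chain genes and Irf1 is a transcription factor of interferon responses. None of the 6 was called between genotypes at any age: Irf1, with the lowest adjusted p of them, had a log2 fold change of 0.33 ± 0.13 at 6 months (adjusted p = 0.0898).

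The mixed strain background could split libraries by haplotype, since the H2 complex differs between inbred strains, and the levels of the complex were examined for such a split. Of its 152 genes tested, from H2-K2 to H2-M3, 116 had a mean of at least 1 CPM. Among these, no gene had a gap of more than 1 on the log2 scale between neighbouring libraries in rank order. The widest, 0.91 in H2-Ab1, a class II gene, set 1 library above the other 31, and those of Psmb8 (0.85) and Psmb9 (0.84) set 1 library below the other 31. The widest gap set a single library apart in 76 of the 116 genes. Gaps above 1 occurred in 9 genes, all with a mean of 0.671 CPM or less. Smaller gaps split the libraries more evenly. In 13 of the 116 genes the widest gap left at least 5 libraries on each side, with gaps of 0.039 to 0.53, and 6 of these split 11 libraries from 21. The widest of them was in C4a, a complement gene, whose upper 11 libraries were all CHMP2Bintron5 libraries: 1 at 1.5 months, all 4 at 6 months and all 6 at 10-12 months. In Zfp57 (gap 0.25) the lower 11 libraries were all of the controls at 6 and 10-12 months, and the lower 11 of Trim26 (gap 0.039) shared 10 of them. Bag6 and Skiv2l shared all 11 of their lower libraries, 8 of them at 1.5 months. Rxrb shared 10 of its lower 11 libraries with each of Bag6 and Skiv2l, and Nrm shared 5 of its lower 6 with Zfp57. Bag6 shared 3 of its lower 11 with Zfp57. Some genes thus split nearly the same libraries, and other genes split different ones. Of the 10 genes described here, 8 lie in this window, and in none of them did the widest gap leave more than 1 library on its smaller side. This did not hold for every class I gene of the window: in H2-M5 the widest gap (0.15) set 4 libraries below the other 28. Tapbp lies outside the window, and its widest gap of 0.12 set 3 libraries below the other 29. Genotypes of the H2 complex were not measured, and the part of haplotype in the class I values was not tested.

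The other genes of the pathway were counted by list, with the shares of all genes called as given above. Of 16 other class I heavy chain genes tested, none was called at 1.5 or 6 months (1 at an unadjusted p under 0.05 at each age) and 1 rose at 10-12 months, H2-M5 (0.62 ± 0.13, adjusted p = 0.0021), where 8.24% of all genes were called higher. Their median log2 fold changes were -0.0011, 0.21 and -0.09 from the youngest to the oldest age. Among 15 genes of peptide trimming and folding in the endoplasmic reticulum none rose at any age, and the medians were -0.06, -0.07 and -0.12. At 1.5 months none of them was called and 5 had an unadjusted p under 0.05. Canx, the lectin chaperone calnexin, fell at 6 months (-0.32 ± 0.11, adjusted p = 0.0490), and 5 fell at 10-12 months, where 10.4% of all genes were called lower, among them Pdia3, the disulfide isomerase of the loading complex (-0.40 ± 0.08, adjusted p = 0.0007), Canx (-0.39 ± 0.09), Hspa5 (-0.35 ± 0.11) and Calr (-0.25 ± 0.08). The Canx call at 6 months was lost without the Avil or without the Acta1 libraries, and with the GC and length correction 3 of the 15 fell at 10-12 months. Of the 4 other inducible proteasome parts, the activator subunits Psme2 (0.31 ± 0.08, adjusted p = 0.0167) and Psme1 (0.50 ± 0.16, adjusted p = 0.0394) rose at 6 months, where 5.68% of all genes were called higher, and Psme1 rose at 10-12 months (0.54 ± 0.14, adjusted p = 0.0074). The list's medians were 0.23, 0.30 and 0.22, and neither gene was called at 6 months without the Avil libraries or without the Acta1 libraries. Of 27 constitutive proteasome genes 8 fell at 10-12 months, against 10.4% of all genes, by small amounts, such as Psmc6 (-0.35 ± 0.09) and Psmc2 (-0.14 ± 0.04), 5 without the Avil libraries and 5 without the Acta1 libraries. The medians were -0.06, -0.05 and -0.12, and none was called at the younger ages (5 and 3 at an unadjusted p under 0.05; DESeq2 called 3 and 0).

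Regulators were called singly. Of 25 genes of class I control and interferon signalling, 2, 3 and 3 rose from the youngest to the oldest age, against 1.76%, 5.68% and 8.24% of all genes called higher, and none fell. The list's medians were 0.04, 0.11 and 0.08. Irf8, a transcription factor also known as a microglial gene, rose at 1.5 months (1.00 ± 0.18, adjusted p = 0.0005) and at 10-12 months (0.55 ± 0.17, adjusted p = 0.0249). Socs1, a feedback inhibitor of interferon signalling, rose 2.20-fold at 6 months (adjusted p = 0.0410), and Relb, an NF-kappaB subunit, rose at 10-12 months (0.59 ± 0.17, adjusted p = 0.0156). Nlrc5, the main transactivator of class I genes, had log2 fold changes of 0.31, 0.66 and 0.54 at the 3 ages and did not pass (adjusted p = 0.519, 0.0945 and 0.0828). At 6 months all 3 regulator calls (Socs1, Nfyc and Irf9) were lost without the Avil libraries, and also without the Acta1 libraries.

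No interferon-induced gene on the list was called higher at any age. Of 27 tested, none was called at 1.5 or 6 months (1 and 3 at an unadjusted p under 0.05; DESeq2 called 1 and 0). At 10-12 months 9 fell and none rose, against 10.4% of all genes called lower, and the median log2 fold change of the list was -0.54. Among the 9 were the guanylate-binding protein Gbp3 (-0.92 ± 0.22, adjusted p = 0.0055) and Ifi44 (-1.32 ± 0.33, adjusted p = 0.0069), Isg15, a ubiquitin-like protein (-0.69 ± 0.21, adjusted p = 0.0227), and Oas2 (-0.75 ± 0.24, adjusted p = 0.0292). Without the Acta1 libraries 3 of the 27 fell. Whether this list and the class I genes differed from each other was not tested. Class II presentation genes gave 2 calls of 12 at 1.5 months, Ctss, a lysosomal protease of microglia (1.09 ± 0.16), and H2-Ob (1.06 ± 0.18), and none later. On the list set up for class I receptors 8 genes were tested. The only call was Klrb1c, lower at 6 months (-1.69 ± 0.44, adjusted p = 0.0137). Klrb1c is also on the list of T and natural killer cell markers. A place on the receptor list does not show that a product binds class I molecules.

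Microglia and endothelial cells are sources of class I transcripts, and their markers were counted the same way. Of all genes, 1.76% were called higher and 1.97% lower at 1.5 months, 5.68% each way at 6 months, and 8.24% higher and 10.4% lower at 10-12 months. Of 13 markers of disease-associated microglia, 11 rose at 1.5 months. At 6 months 1 rose and 1 fell, and at 10-12 months 7 rose and 1 fell. Their summed level ran from 1279 to 1767 CPM in controls and from 2070.2 to 3181 CPM in CHMP2Bintron5 cord at 1.5 months, from 1837 to 2202 and 2315 to 2566 CPM at 6 months, and from 1518 to 2389 and 2021 to 2972 CPM at 10-12 months. The median log2 fold changes of these markers were 1.51, 0.17 and 0.60. Of 10 homeostatic microglial markers, 3 rose at 1.5 months, 2 fell at 6 months (0 without the Avil or without the Acta1 libraries) and 1 rose at 10-12 months. Of 9 endothelial markers, none was called at 1.5 months, 4 fell at 6 months (1 without the Acta1 libraries) and 5 fell at 10-12 months, among them Pecam1 at both ages (-0.52 ± 0.09 and -0.47 ± 0.08). T and natural killer cell markers were low throughout, with a summed level over 15 genes of 3.71 to 13.9 CPM in all 32 libraries, and 0, 1 and 1 of the 13 tested were called lower at the 3 ages. The part of these cell types in the class I values was not tested.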

How the data were processed

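RNA had been sequenced from 32 spinal cord samples as stranded poly(A) libraries, per the labels' protocols. The values are raw counts of reads per gene as deposited by the authors. Per the submitters' processing notes, bcl2fastq 2.17.1.14, TopHat2 2.0.14, Bowtie2 2.1.0, HTSeq 0.6.1 and the build mm10 were used; the sources used here do not give the annotation release, the strand setting or the handling of reads that map to several genes. Identifiers were given symbols from a gene table (45143 of 45706); those without a symbol held 0.0788% of the counts. Exon coordinates, lengths and GC content came from a GRCm38 annotation, and GC content was available for 19914 of the 20015 genes tested.

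Genes were kept by edgeR's filterByExpr (minimum count 10, minimum total 15). A single quasi-likelihood fit (edgeR 4.0.16, R 4.3.3) with TMM normalization had 1 term per genotype and age. It gave 12 contrasts, with Benjamini-Hochberg adjustment over all genes tested. CPM were computed here with the TMM library sizes, and errors on log2 fold changes are standard errors. Ratios were tested by exact two-sided permutation of log2 ratios over samples. The number of samples and the depth of 28368376 to 85348326 counts limit the precision.

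Alternatives were DESeq2 1.42.0 and its size factors, no filter, only the groups compared, a spline correction for GC content and length, a replicate block, leaving out each library, and leaving out CHMP2Bintron5 replicates 2 and 3 at 6 months. Leaving out the libraries with Acta1 over 30 CPM, and combining the correction with the loss of the Avil libraries, were chosen after seeing the data. The fit was tested on simulated data. It recovered 65%, 49% and 66% of 1.5-fold genotype changes at 1.5, 6 and 10-12 months, and 89%, 90% and 93% of 2-fold changes. A difference of about 1.5-fold that did not pass is therefore not shown to be absent. Named genes were all 10 members, from each pathway list up to 4 called genes with the lowest adjusted p, the 6 genes most like the members and up to 6 genes of the H2 complex with the widest gaps. Other names (Nlrc5, Pecam1, Tapbp's neighbour Zbtb22, Nfyc, Irf9, C4a, Zfp57, Trim26, Bag6, Skiv2l, Rxrb, Nrm and the library markers Avil, Acta1 and Xist) were chosen after their values were seen. The members and the lists were chosen with earlier results of these data known.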

Additional observations from a re-analysis of the deposited data

Results flagged for a closer look

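Among 78 sets of 4 to 6 samples examined (each gene or ratio in each group), 4 held a library far from the rest of its group. About 1 in 20 sets would by chance. H2-D1 in CHMP2Bintron5 replicate 3 at 1.5 months was at 250.4 CPM, below the other 4 libraries at 297 to 311 CPM. In CHMP2Bintron5 replicate 4 at 1.5 months Tap2 was at 17.7 CPM against 6.06 to 9.17 CPM in the other 4, and Tapbp at 60.3 CPM against 46.3 to 48.3 CPM. This library had the steepest slope of gene level on GC content of its group, 0.37 (log2 CPM per 10 percentage points of GC) where the other 4 were at -0.08 or below. The ratio of Psmb9 to Psmb6 in control replicate 3 at 6 months was 0.0426, above the 0.0231 to 0.0276 of the other 4 controls.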

How the results depend on the processing

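H2-D1 at 6 months was called in every fit that left out 1 library, with DESeq2 and its size factors, without a filter, with only the groups compared, with the GC and length correction and without the Avil libraries, but not with the replicate block or without the Acta1 libraries. Of members called higher between genotypes at 6 months (2), the GC and length correction left 1, and the replicate block, the replicate block with that correction and the loss of the Acta1 libraries left 0; leaving out 1 library gave 1 to 3. At 10-12 months (2), no filter and the replicate block left 1; only the groups compared, the GC correction, the replicate block with it, and the correction without the Avil libraries left 0; leaving out 1 library gave 0 to 2. From 1.5 to 6 months in controls (3), leaving out 1 library gave 1 to 4. From 1.5 to 10-12 months in controls (2), no filter, only the groups compared and the loss of the Avil libraries left 1, and leaving out 1 library gave 0 to 3. In CHMP2Bintron5 cord from 1.5 to 6 months (7), only the groups compared left 3 and the loss of the Acta1 libraries 0, and leaving out 1 library gave 4 to 9; to 10-12 months (2), no filter, the GC correction with or without the Avil libraries left 1, the loss of the Acta1 libraries 0, and leaving out 1 library gave 0 to 4. The cause was not tested. Values that changed sign were small. At 1.5 months with the GC correction, with the replicate block added and with the Avil libraries dropped, H2-K1 was -0.048, -0.12 and -0.048, H2-T23 -0.054, -0.13 and -0.054, and Psmb9 -0.059, -0.077 and -0.060; H2-D1 was -0.058 with the replicate block and correction; H2-T23 was -0.0033 with the replicate block and -0.0094 without the Acta1 libraries, where H2-Q4 was 0.081. Without the Acta1 libraries B2m and Psmb9 at 6 months were -0.14 and -0.11, and with the replicate block H2-T23 at 10-12 months was 0.023. Leaving out 1 library gave -0.038 to 0.10 for H2-K1, -0.0022 to 0.089 for H2-T23, -0.076 to 0.083 for H2-Q4, -0.15 to 0.34 for Tap2 and -0.11 to 0.12 for Psmb9 at 1.5 months, -0.14 to 0.20 for B2m at 6 months, and -0.14 to 0.062 for H2-T23 and -0.0092 to 0.30 for Psmb9 at 10-12 months. For Psmb9 over Psmb6 it gave -0.20 to 0.047, -0.12 to 0.23 and -0.20 to 0.056 at the 3 ages, and for Psmb8 over Psmb5 -0.022 to 0.20 at 10-12 months. The replicate block called 300 genes at 6 months against 2274. Over 15 pairs the deviations of same-numbered libraries had correlations of -0.36 to 0.33, and 1 pair was its own best match. These values do not show that the numbers pair the samples. They cannot exclude a pairing either, since the deviations also carry library differences such as the GC slope. The block, a number within an age, was not used between ages of 1 genotype. Over all genes, calls at 1.5 months were 746, but 308 with only the groups compared, 1690 with the GC correction and 281 with the replicate block; at 6 months they were 899 without the Avil libraries and 695 without the Acta1 libraries.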
